A study of Mus musculus with 4 samples.

Results

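Wide CTCF peaks were described as the peak entries of 400 bp or more, measured from interval start to interval end, in the conservative peak list of mouse calf muscle. The rule gave 310 entries out of the 41000 autosomal entries of that list, or 0.756%. Since 47 intervals were listed 2 times, once for each of 2 summits, the 310 entries stand for 263 distinct intervals. They were set against the 26756 entries of 250 to 350 bp (26755 distinct intervals), the usual width in this list. A further 3 wide entries lay on the X chromosome and were not used.

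The data are CTCF chromatin immunoprecipitation followed by sequencing (ChIP-seq) from gastrocnemius, the large muscle of the calf, of female B6CASTF1/J hybrid mice aged 2 months. Pool E and pool F each combined 2 tissue samples and gave 2 technical replicates, so there were 4 libraries, all of the same strain, sex, age and tissue and with no treatment. The size range recorded for the libraries was 200 to 600 bp. Both pools enter every entry of the conservative list, so wide and 250 to 350 bp peaks are 2 classes of site in the same chromatin and not 2 groups of animals. Peak lists hold no expression values, so the tissue could not be checked by marker genes.

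CTCF recognises a long, asymmetric DNA motif through its row of zinc fingers. It stops the cohesin ring as the ring extrudes a chromatin loop, and loop anchors mostly carry motifs that point at each other, so the strand of a motif matters. Peak callers report a site as an interval around a summit, the base with the highest signal, and neighbouring sites closer than a DNA fragment can fall into 1 interval.

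The sequences below were chosen by a rule, the strongest wide interval of each motif arrangement and the evenly spaced arrays, because the number and layout of motifs differed most between wide and 250 to 350 bp intervals. Capitals mark each match to the CTCF core consensus with at most 2 mismatches, searched on both strands with overlapping matches counted once. All letters are the plus strand of the reference assembly GRCm38.p6 (mm10 coordinates), not the alleles of the hybrid mice. In a convergent pair the left match reads on the plus strand and the right match on the minus strand, in a divergent pair the reverse, and in a tandem pair both read on one strand.
convergent pair, chr11:98438893-98439072: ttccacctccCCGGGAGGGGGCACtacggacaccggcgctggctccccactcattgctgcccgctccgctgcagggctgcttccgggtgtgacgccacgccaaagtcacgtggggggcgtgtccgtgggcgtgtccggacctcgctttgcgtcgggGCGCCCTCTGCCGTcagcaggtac
divergent pair, chr10:60245217-60245319: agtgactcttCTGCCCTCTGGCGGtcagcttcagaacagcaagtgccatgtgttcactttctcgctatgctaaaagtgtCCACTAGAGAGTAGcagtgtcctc
tandem pair on the plus strand, chr13:45030957-45031068: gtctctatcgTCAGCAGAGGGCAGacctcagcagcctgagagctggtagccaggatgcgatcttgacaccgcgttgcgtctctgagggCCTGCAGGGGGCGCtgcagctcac
tandem pair on the minus strand, chr8:84903154-84903276: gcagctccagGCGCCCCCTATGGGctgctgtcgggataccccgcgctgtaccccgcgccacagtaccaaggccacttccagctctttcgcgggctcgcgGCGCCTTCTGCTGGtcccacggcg
wide interval with 1 match, chr8:23237862-23237921: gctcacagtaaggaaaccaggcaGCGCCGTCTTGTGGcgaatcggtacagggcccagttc
wide interval with no match, chr4:129276649-129276708: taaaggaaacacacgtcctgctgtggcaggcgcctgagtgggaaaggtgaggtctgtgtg
strongest interval of 250 to 350 bp, 1 match, chr10:60835131-60835190: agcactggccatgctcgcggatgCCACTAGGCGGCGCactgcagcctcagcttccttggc

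The convergent pair lies in an interval of 413 bp with a strength of 565.1, and its matches start 146 bp apart. The divergent pair starts 69 bp apart in an interval of 409 bp (strength 637.8), the plus-strand tandem pair 78 bp apart in an interval of 427 bp (669.0), and the minus-strand tandem pair 89 bp apart in an interval of 449 bp (627.0). Strength means the score deposited by the authors for a peak; no source gives its scale, and it is used to rank and describe peaks only.

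Wide intervals were a thin tail beyond a sharp limit. In the whole autosomal list, 10743 distinct intervals (26.2%) were exactly 340 bp wide, 1650 were 341 to 399 bp wide and 263 were 400 bp or more. The wide intervals ranged from 400 to 781 bp with a median of 472 bp (quartiles 417 and 527.5 bp). Of the 263, 150 reached 450 bp, 101 reached 500 bp, 17 reached 600 bp and 3 reached 700 bp. No gap in the values marks the limit of 400 bp: the 25 entries of 400 to 404 bp had strengths of 334.5 to 663.8 (median 552.5) and 6 of them held 2 or more matches, while the 16 entries of 395 to 399 bp had strengths of 300.1 to 628.2 (median 557.4) and 7 of them held 2 or more matches.

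**Figure D1:**
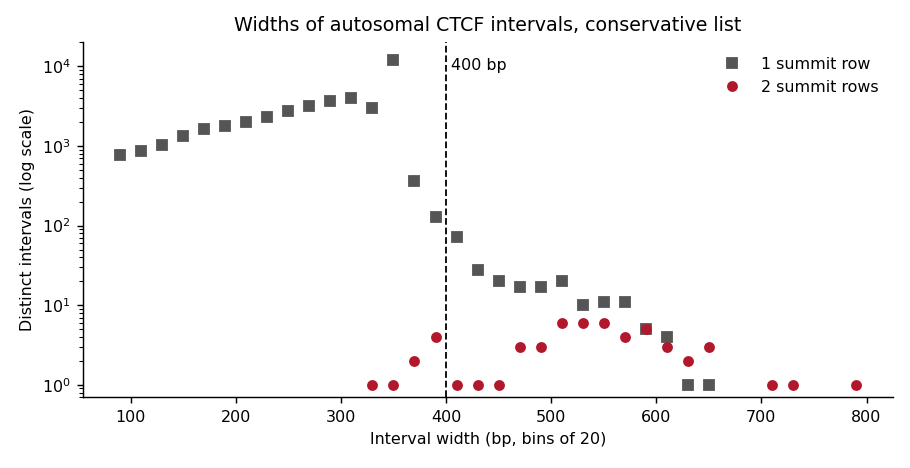
Number of distinct autosomal intervals (log scale) by width in bins of 20 bp, split into intervals listed once (grey squares) and listed for 2 summits (red circles). The counts drop after the 340 bp mode, and the widest intervals, up to 781 bp, are mostly those listed for 2 summits.

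A minority of the wide intervals held more than 1 summit. Of the 263, 52 (19.8%, 95% Wilson interval 15.4 to 25) contained 2 or more summits, against 1 of the 26755 intervals of 250 to 350 bp (0.00374%) and 0.149% of all autosomal intervals. This follows in part from the way peaks were called, because no 2 summits in the list were closer than 199 bp, so it is a description and was not tested. The 47 intervals listed for both of their summits made up 94 of the 310 entries. They were 417 to 781 bp wide with a median of 555 bp, and 44 of them reached 450 bp. The 216 intervals listed once, 5 of which also hold the summit of another, overlapping interval, had a median of 448.5 bp (400 to 647), and 106 of them reached 450 bp.

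Within the 2-summit intervals the summits were close and unequal. They lay 199 to 388 bp apart with a median of 209 bp (quartiles 201.5 and 225.5). The stronger summit had a median strength of 408.9 (287.6 to 594.1) and the weaker one 174.2 (18.4 to 333.3), a median ratio of weaker to stronger of 0.41 that ran from 0.031 to 0.97. A core match lay within 50 bp of both summits in 22 of the 47 intervals, of 1 summit in 22 and of neither in 3. Among the stronger summits 39 of 47 had such a match, and among the weaker summits 27 of 47.

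Most wide intervals carried more than 1 CTCF motif. Of the 263 wide intervals, 170 (64.6%, interval 58.7 to 70.2) held 2 or more core matches, against 1785 of 26755 intervals of 250 to 350 bp (6.67%, interval 6.38 to 6.98). Over all autosomal intervals the share was 6.51%. The difference of 58.0 percentage points (Newcombe 95% interval 52.0 to 63.5) left out 0 and was called. These intervals cover counting error over sites only; the lists merge the replicates, so no value here has a spread between animals. The share was higher in wide than in 250 to 350 bp intervals on 18 of the 19 autosomes, the exception being chromosome 16, which has 3 wide entries.

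Longer intervals have more room for chance matches, so windows of the same length displaced by 2000 bp to each side were read as a background. Of 526 such windows beside wide intervals 9 (1.71%) held 2 or more matches, against 286 of 53510 windows (0.534%) beside 250 to 350 bp intervals. Reading only the central 300 bp of every interval left a difference of 44.6 points (38.6 to 50.6). With at most 1 mismatch the share was 53 of 263 (20.2%) in wide intervals, against 126 of 26755 (0.471%) in 250 to 350 bp intervals. Compared within 5 classes of strength, the difference was 57.2 points (51.5 to 63.0).

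The full count of matches shows where the classes part. No match was found in 13 wide intervals (4.94%), 1 match in 80 (30.4%), 2 matches in 137 (52.1%) and 3 or more in 33 (12.5%). In intervals of 250 to 350 bp the shares were 19.1%, 74.2%, 6.26% and 0.411%. At least 1 match was thus present in 250 wide intervals (95.1%, interval 91.7 to 97.1) and in 80.9% of intervals of 250 to 350 bp, beside 79.4% of all autosomal intervals. That difference of 14.2 points (10.8 to 16.3) was called; compared within strength classes it was 5.69 points (2.73 to 8.65). In the displaced windows the share with at least 1 match was 16% beside wide and 9.45% beside 250 to 350 bp intervals.

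**Figure D2:**
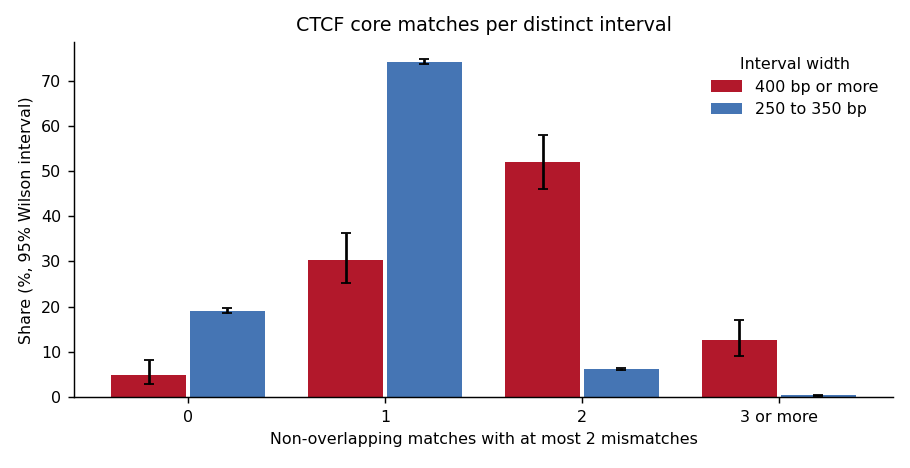
Share of distinct intervals (%) with 0, 1, 2 and 3 or more CTCF core matches, for wide intervals (red, n = 263) and intervals of 250 to 350 bp (blue, n = 26755), with 95% Wilson intervals. One match is the usual count at 250 to 350 bp (74.2%), and 2 is the commonest count in wide intervals (52.1%).

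Near the summit the order turned round. A core match lay within 50 bp of the summit for 219 of 310 wide entries (70.6%, interval 65.3 to 75.4), against 78.8% of entries of 250 to 350 bp, a difference of −8.20 points (−13.5 to −3.38). In the 112 wide intervals listed once and with exactly 2 matches, 3 of which hold a further summit listed with an overlapping interval, the interval's own summit lay between the match centres in 96 (85.7%), a median of 27 bp from the nearer one, and in 26 it was more than 50 bp from both. In the intervals of 250 to 350 bp with exactly 2 matches the summit lay between them in 1004 (59.9%), at a median of 6.5 bp from the nearer match. The pair started less than 199 bp apart in 56 of those 112 wide intervals, closer than any pair of summits in the list.

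Wide intervals with a single match had it off centre. In these 80 intervals the match centre lay a median of 62.3 bp from the middle of the interval (upper quartile 98.4), against 8 bp (upper quartile 14) in the 19852 intervals of 250 to 350 bp with a single match. It lay a median of 31 bp from the summit in wide intervals and 6.5 bp in those of 250 to 350 bp. The middle of the interval fell on the 3′ side of the match in 41 of the 80 wide intervals (51.3%) and in 26.5% of those of 250 to 350 bp. A wider interval allows larger distances, so these are descriptions.

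Motif pairs in wide intervals favoured one strand. Of the 137 wide intervals with exactly 2 matches, 84 (61.3%, interval 53.0 to 69.1) were tandem, 29 (21.2%) convergent and 24 (17.5%) divergent. Of the 1675 such intervals of 250 to 350 bp, 49.6% were tandem, 25.9% convergent and 24.6% divergent. The tandem share was 11.8 points higher in wide intervals (3.07 to 19.9), and the interval left out 0. The tandem pairs were spread over both strands, 40 on the plus and 44 on the minus strand. Among the wide pairs less than 150 bp apart 64.4% of 45 were tandem, and among those farther apart 59.8% of 92.

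The pairs were also farther apart. The 2 matches started a median of 208 bp apart in wide intervals (quartiles 118 and 241, range 14 to 311), against 76 bp (43 and 115, range 14 to 299) in intervals of 250 to 350 bp. Pairs closer than 150 bp made up 32.8% of the wide intervals and 92.4% of those of 250 to 350 bp. Among wide intervals the spacing was a median of 253 bp where both summits were listed (25 intervals) and 199 bp where 1 was (112). Width and spacing rose together over the 137 wide intervals (Spearman's rho 0.745, Pearson's r 0.659, as a description), but a pair cannot be farther apart than its interval is long, so the width rule fixes part of this.

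**Figure D3:**
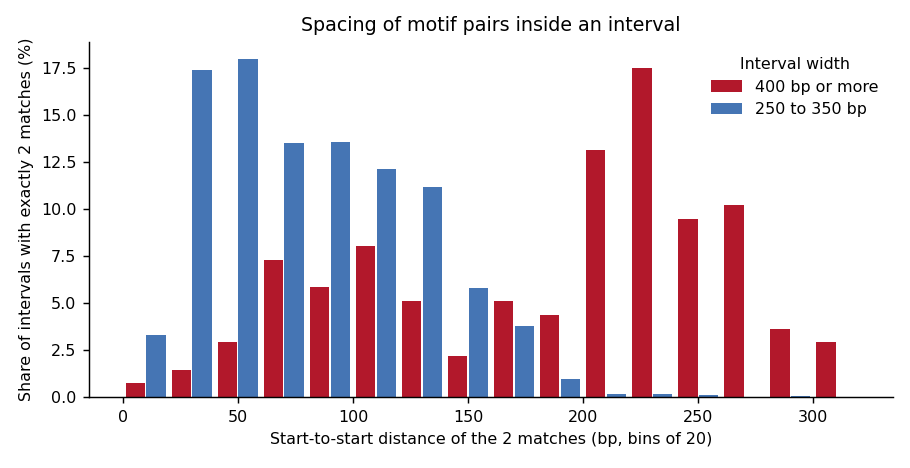
Start-to-start distance (bp, bins of 20) of the matches in intervals with exactly 2, as a share (%) of the 137 wide intervals (red) and of the 1675 intervals of 250 to 350 bp (blue). The wide intervals have their tallest bars from 200 to 280 bp, and those of 250 to 350 bp lie mostly under 150 bp (92.4%).

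Spacing can be read without the interval's ends by starting from the match at each summit and asking how far the next match lies, inside the interval or not. Among the 25913 autosomal entries with a match at the summit and no second match within 350 bp, 52 were wide (0.201%, interval 0.153 to 0.263); of all autosomal entries 0.756% were wide. With a second match the share of wide entries was 1.98% at 14 to 49 bp, 3.04% at 50 to 99 bp, 2.61% at 100 to 149 bp, 2.15% at 150 to 199 bp, 4.94% at 200 to 249 bp and 2.37% at 250 to 350 bp. The highest value, 41 of 830 entries (interval 3.66 to 6.63), was at 200 to 249 bp; its interval overlaps that of 50 to 99 bp (2.16 to 4.25). Intervals listed for 2 summits, which lie 199 bp or more apart, count for each. With each distinct interval counted once at its stronger summit, a count added after these values were seen, 35 of 824 (4.25%, interval 3.07 to 5.85) were wide at 200 to 249 bp, 1.55% to 2.85% in the other classes with a second match and 0.193% without one. In both counts every class with a second match lay above the class without one. A second match was far from enough: in the class of 200 to 249 bp, too, most entries were not wide. Among entries at or above the median strength of the list the shares were 0.353% without a second match and 3.31% to 7.19% with one. Entries with no match within 50 bp of the summit were wide in 93 of 9182 cases (1.01%).

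**Figure D4:**
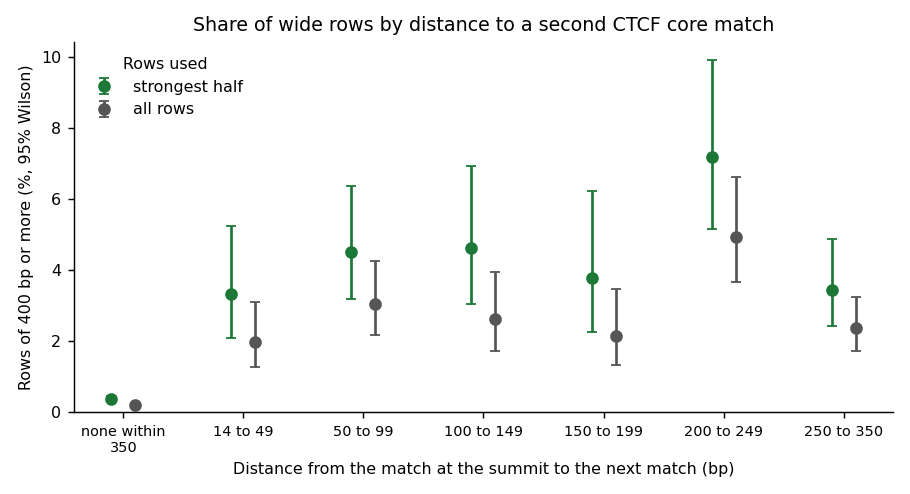
Share of autosomal entries that are 400 bp or wider (%, 95% Wilson intervals) by the distance in bp from the match at the summit to the next match, for entries at or above the median strength (green) and for all entries (grey). The share is 0.201% of all entries without a second match within 350 bp and has its highest value, 4.94%, with a second match 200 to 249 bp away, where intervals listed for 2 summits count for each.

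A few wide intervals held evenly spaced arrays of motifs, a pattern picked out after the values were seen. Arrays of 3 or more matches on one strand, with spacings that differ by at most 2 bp among neighbours, were found in 4 of 263 wide intervals (1.52%) and in 12 of 26755 intervals of 250 to 350 bp (0.0449%), beside 0.0513% of all autosomal intervals. All 4 are printed because the repeat can be read off the letters.
array in an intron of Sec22c, chr9:121697648-121697947: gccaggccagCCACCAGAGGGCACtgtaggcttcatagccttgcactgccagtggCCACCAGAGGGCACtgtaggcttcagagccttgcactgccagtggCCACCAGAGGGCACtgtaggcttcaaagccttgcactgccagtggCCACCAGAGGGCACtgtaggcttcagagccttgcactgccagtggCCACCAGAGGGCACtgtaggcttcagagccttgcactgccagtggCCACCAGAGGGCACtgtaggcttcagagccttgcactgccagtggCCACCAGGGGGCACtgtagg
array in an intron of Erc2, chr14:27804055-27804276: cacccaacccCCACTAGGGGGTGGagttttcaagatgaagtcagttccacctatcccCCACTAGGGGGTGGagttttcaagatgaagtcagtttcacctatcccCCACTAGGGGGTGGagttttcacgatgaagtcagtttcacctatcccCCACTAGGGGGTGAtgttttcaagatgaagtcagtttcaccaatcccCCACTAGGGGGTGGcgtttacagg
array between genes, chr7:99151399-99151636: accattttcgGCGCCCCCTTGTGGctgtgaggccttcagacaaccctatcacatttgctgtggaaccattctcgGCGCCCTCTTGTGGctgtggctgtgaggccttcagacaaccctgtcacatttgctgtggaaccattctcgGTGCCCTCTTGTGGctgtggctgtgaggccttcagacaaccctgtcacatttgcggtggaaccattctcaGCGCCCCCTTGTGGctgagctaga
array between genes, chr13:110368716-110368896: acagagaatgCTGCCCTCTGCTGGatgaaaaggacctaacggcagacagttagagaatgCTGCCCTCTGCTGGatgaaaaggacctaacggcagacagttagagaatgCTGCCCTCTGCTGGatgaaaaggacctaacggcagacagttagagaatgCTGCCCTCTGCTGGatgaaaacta

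The array in an intron of Sec22c, a gene of vesicle transport, had 7 matches without a mismatch, 1 every 45 bp. Its interval was 584 bp wide, with a strength of 564.4. The array in an intron of Erc2, a protein of the presynaptic active zone, had 5 matches at 47 bp, in an interval of 427 bp with a strength of 470.1. The intergenic array on chromosome 7 had 4 matches on the minus strand at 64, 70 and 70 bp, in an interval of 558 bp with a strength of 603.8 (the first spacing is outside the limit of 2 bp). The other array, at chr13:110368573-110369059, had 4 matches without a mismatch at 49 bp, in an interval of 487 bp with a strength of 541.4. Identity between neighbouring units was read over 1 spacing from the start of each match. It ran from 95.6% to 100% in the Sec22c array and from 59.6% to 97.9% in the Erc2 array. In the chromosome 7 array it ran from 42.9% to 95.7%, and in the chromosome 13 array from 57.1% to 100%. The last unit runs past the last match into the sequence behind it, so the low ends do not measure how alike the copies are. In the printed chromosome 13 letters the stretches between matches are the same throughout. All 4 intervals were listed once. The share of these intervals masked as repeat ran from 0 to 13.5%, so the arrays lay mostly in sequence that the repeat mask leaves out.

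Wide peaks lay at gene starts more often than peaks of usual width. A gene start lay within 1000 bp of the summit (called a promoter here) for 93 of 310 wide entries (30%, interval 25.2 to 35.3), against 3738 of 26756 entries of 250 to 350 bp (13.97%, interval 13.6 to 14.4) and 14.2% of all autosomal entries. The difference of 16.03 points (11.2 to 21.4) was called. With starts of protein-coding genes alone the shares were 25.5% and 10.5%. The promoter share was higher in wide entries on 16 of the 19 autosomes. The median distance to the nearest gene start was 4048 bp for wide entries and 10795 bp for entries of 250 to 350 bp.

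Counted over entries, exons also held a larger share of wide peaks and introns a smaller one. In exons lay 10% of wide and 6.68% of 250 to 350 bp entries, and 6.87% of all entries. The difference was 3.32 points (0.443 to 7.18). That range takes entries as separate sites, although an interval listed for both summits counts for each. Over distinct intervals, 25 of 263 wide intervals lay in exons, against 1786 of 26755 intervals of 250 to 350 bp. No Newcombe interval was computed for that count, so the exon difference was not called. Introns held 24.5% of wide entries and 44.4% of those of 250 to 350 bp, a difference of −19.9 points (−24.4 to −14.7), with 44.4% over all entries. Intergenic sequence held 35.5% and 35.0%, and that difference of 0.50 points (−4.65 to 6.005) was not called; over all entries the share was 34.5%.

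**Figure D5:**
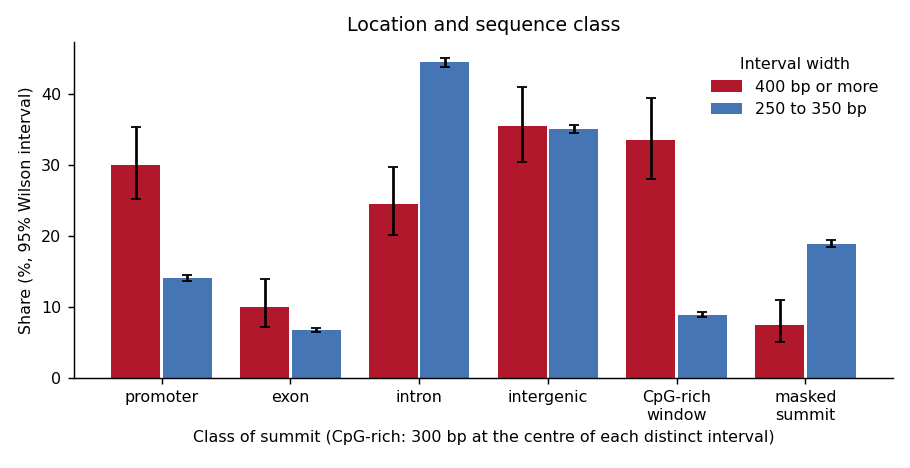
Share (%) of wide entries (red) and of 250 to 350 bp entries (blue) by location of the summit, by a CpG-rich window at the centre of the distinct interval and by a summit in masked repeat, with 95% Wilson intervals. Promoters (30% against 13.97%) and CpG-rich windows (33.5% against 8.85%) are over-represented among wide peaks, introns (24.5% against 44.4%) and masked repeats (7.42% against 18.9%) under-represented.

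CpG-rich sequence was commoner under wide peaks both at gene starts and away from them. A window of 300 bp at the centre of the interval was called CpG-rich with a GC content of at least 55% and an observed-to-expected CpG ratio of at least 0.6 (limits of the kind used to define CpG islands). This held for 88 of 263 wide intervals (33.5%, interval 28.0 to 39.4), against 2369 of 26755 intervals of 250 to 350 bp (8.85%, interval 8.52 to 9.20) and 9.00% of all autosomal intervals. The difference of 24.6 points (19.2 to 30.5) was called. At promoters the shares were 52 of 80 wide intervals (65.0%) and 45.9% of 250 to 350 bp intervals, and away from promoters 36 of 183 (19.7%) and 2.85%. Outside CpG-rich sequence, promoters held 28 of 175 wide intervals (16%, interval 11.3 to 22.2) and 8.30% of those of 250 to 350 bp. Median GC content was 55.7% in wide and 47.7% in 250 to 350 bp intervals, with medians of 10 and 4 CpG sites per 300 bp.

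The motif excess was present in every class of location. The share with 2 or more matches was 55% of wide and 7.22% of 250 to 350 bp intervals at promoters, and 60% and 9.63% in exons. It was 73.5% and 6.61% in introns, and 67.8% and 5.96% between genes. In CpG-rich intervals it was 56.8% and 8.61%, and in the others 68.6% and 6.48%. At promoters 5 of 80 wide intervals (6.25%, interval 2.70 to 13.8) had no match, against 38.1% of the 3738 intervals of 250 to 350 bp there. Among wide intervals, the 13 without a match differ in sequence: 10 of them (76.9%) were CpG-rich, against 35.0% of wide intervals with 1 match, 29.2% of those with 2 and 30.3% of those with 3 or more. Intervals of 250 to 350 bp without a match are not compared here, so this may not be particular to wide peaks. Median width of wide intervals was 449 bp without a match, 436 bp with 1, 488 bp with 2 and 510 bp with 3 or more.

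Wide peaks lay less often in repeats. The summit was in sequence masked as repeat in 23 of 310 wide entries (7.42%, interval 4.99 to 10.9), against 18.9% of 250 to 350 bp entries and 19.8% of all autosomal entries, a difference of −11.4 points (−13.9 to −7.93). Compared within classes of strength the difference was −4.23 points (−7.37 to −1.09), and among entries at or above the median strength it was −2.33 points (−4.80 to 1.35) and no longer called. Neighbouring peaks were somewhat closer: the nearest summit outside the interval lay within 10000 bp of 158 of 263 wide intervals (60.1%, interval 54.1 to 65.8), against 51.8% of those of 250 to 350 bp (difference 8.23 points, 2.18 to 14).

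The strength of wide peaks was high on the whole, and a few stood near the top of the list. Because the interval and the score come from the same peak call, these values are given without a test. Strength in wide entries had a median of 470.4 (quartiles 358.2 and 545.8, range 18.4 to 669.0), against 359.6 (92.0 and 476.8, range 11.5 to 684.0) in entries of 250 to 350 bp. Of the wide entries 232 (74.8%) exceeded that second median, and 268 (86.5%) reached the median of the whole list, as did 59.7% of the 250 to 350 bp entries. The weaker summits of the 47 intervals listed for 2 summits count as entries here, with strengths of at most 333.3, below 359.6. Wide intervals listed once had a median strength of 516.3, and the stronger summits of those listed for 2 summits had 408.9. Wide entries took 40 of the 1000 highest ranks (4%), beside 0.756% of all autosomal entries.

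The long intervals were those of pool E. Each entry pairs an interval of a first input, whose strengths matched the ranked pool E list, with an interval of a second input, whose strengths matched the ranked pool F list. In the first input all 310 wide entries were at least 400 bp wide, from 422 to 816 bp with a median of 528.5 bp. In the second input their median was 256 bp (76 to 517), and 24 (7.74%) reached 400 bp. For entries of 250 to 350 bp the medians were 339 bp in the first input, where 0.441% reached 400 bp, and 236 bp in the second, where none of the 26756 did. The first input's interval was the wider one in all 310 wide entries. The inputs differ in their usual width, 360 bp in the first and 304 bp in the second, and 70 of the 310 were above the usual width in the second. The input summits of an entry lay a median of 12 bp apart in wide entries (0 to 355) and 8 bp apart in entries of 250 to 350 bp.

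Where an interval was listed for 2 summits, pool E had 1 interval and pool F mostly had 2. In all 47 intervals with 2 listed summits the first input gave 1 interval, and in 36 of them the second input gave 2, in the other 11 it gave 1. Of the 263 wide intervals 257 (97.7%, interval 95.1 to 99.0) touched an interval of the thresholded pool F list, against 71.0% of the 250 to 350 bp intervals. Most touched only 1, and 34 (12.9%) touched 2 or more, against 0.161% of the 250 to 350 bp intervals. A longer interval has more room to touch 2, so these shares are descriptions. The log2 ratio of strength between first and second input had a median of 0.59 in wide entries and 0.90 in entries of 250 to 350 bp. Among entries at or above the list's median strength the medians were 0.56 in the 268 wide entries and 0.72 in the 15986 entries of 250 to 350 bp. Depth and fragment length of the pools are unknown here, so a property of a pool's libraries and one of its animals cannot be told apart.

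The lists of single pools show the same split. Because the inputs matched the ranked lists of these pools, this is a description and not a separate line of evidence. In the pool E list 779 of 49492 autosomal entries (1.57%) were 400 bp or more, in the pool F list 26 of 32844 (0.0792%), and in the combined list of both pools 293 of 48276 (0.607%). Of the 263 wide intervals, 222 (84.4%, interval 79.5 to 88.3) were matched at a reciprocal overlap of 50% by a pool E interval, with a median partner width of 526.5 bp, and all 222 partners were at least 400 bp. In the pool F list 158 (60.1%, interval 54.1 to 65.8) had one, with a median width of 298 bp, and 22 partners were at least 400 bp. Intervals of 250 to 350 bp had partners in 83.0% and 66.5% of cases. The 41 wide intervals with no pool E partner touched no interval of that list, while all 41 touched an interval of 400 bp or more in the ranked pool E list, with an irreproducible discovery rate (IDR) there of 0.0513 to 0.601, above the threshold of 0.05. They were strong in the conservative list, with a median of 594.0 (470.6 to 669.0). With the wide peaks of a single pool's list in place of the conservative list, the share with 2 or more matches exceeded that of 250 to 350 bp peaks by 41.0 points in pool E (37.2 to 44.8) and by 75.9 points in pool F (56.7 to 85.9).

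The widest interval, at chr2:37771592-37772372, measured 781 bp and lay 4291 bp from the start of Crb2, a cell polarity gene. Its summits had strengths of 381.2 and 177.1, and a minus-strand match lay near each. The next, at chr6:87101224-87101948, was 725 bp wide with strengths of 220.6 and 329.8 and 3 matches. The interval at chr11:50130747-50131464, 718 bp wide, had its stronger summit 95 bp from the start of Tbc1d9b, a TBC domain gene, with strengths of 287.5 and 336.1 on summits 388 bp apart, the largest distance among the 47.

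Of the 10 widest intervals, 4 lay at gene starts. Besides Tbc1d9b they were B3glct, which encodes a glucosyltransferase, 5330439K02Rik, a non-coding transcript, and Dtwd2. The peak at B3glct was 649 bp wide (strengths 425.9 and 202.8), had 3 matches and a GC content of 80.3%, and its stronger summit lay 7 bp from the start. The peak at 5330439K02Rik was 647 bp wide with a strength of 587.4 and 1 match, and the peak at Dtwd2 was 627 bp wide with a strength of 318.3 and 3 matches. Of the rest, the peak in an intron of Kiz, a centrosome gene, was 640 bp wide with strengths of 352.5 and 292.5, and another of 640 bp at chr2:30794517-30795156 lay between genes (380.5 and 275.3). The peak 6583 bp from the start of Ptp4a3, a protein tyrosine phosphatase, was 633 bp wide (519.9 and 174.2), and the peak 3841 bp from the start of Tubb4b, a beta-tubulin, was 630 bp wide (378.9 and 328.6). Listing with 2 summits was usual at this end: 8 of the 10 had them.

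The strongest wide peaks were narrower. The first, at chr13:45030795-45031221, had a strength of 669.0, rank 4 of all autosomal entries, and holds the plus-strand tandem pair printed above. The second lay 217 bp upstream of Gins4, a subunit of the replicative helicase complex, with a strength of 663.8, a width of 401 bp and the single match printed above. The third, at chr4:129276495-129276894, had a strength of 662.9 and no match, and its summit sequence is printed above. The next was at chr8:126986465-126986878 (652.3, 2 matches). It was followed by a peak in introns of Cfap43 and Gsto2 (649.5, 1 match), genes of cilia and flagella and of glutathione metabolism. A peak in an intron of the non-coding gene Platr8 had a strength of 648.5 and 2 matches. The remaining 4 were at chr6:128479759-128480159 (646.2), at chr18:82812382-82812791 (639.2), at chr10:60245072-60245480 (637.8), with the divergent pair printed above, and in an intron of Cln6 (631.6), a gene of the endoplasmic reticulum membrane. All 10 were 400 to 427 bp wide and listed once.

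Besides the arrays, the wide interval with the most matches was at chr13:73160261-73160692, with 5 matches and a strength of 518.9. Of the 5 other intervals with 4 matches the strongest was at chr1:182489710-182490219, in an exon. The place lies within both Capn2, a calcium-dependent protease gene, and the antisense gene Gm37885. Which of these genes the exon belongs to was not resolved. The interval had 2 summits of very unequal strength, 594.1 and 18.4.

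Wide peaks near genes of the chosen lists were few, as they were near protein-coding genes as a whole. Of 20807 autosomal protein-coding genes, 139 (0.668%) had a wide peak with its summit 5000 bp or less from the gene's start, and 7952 had a CTCF summit of any width there. In the list of contractile and metabolic muscle genes, 1 of 50 (2%) had a wide peak: Ankrd2, a stretch-responsive ankyrin repeat gene of muscle, with a peak of 433 bp, strength 558.6 and 2 matches 457 bp from its start. None of 29 genes of muscle transcription factors and satellite cells did. In the list of fibroblast and tendon markers 2 of 17 did, Col1a1, a chain of type I collagen (512.5, 540 bp, 3 matches, 928 bp from the start), and Cebpa, a transcription factor of fat cells. Cebpa had 2 overlapping wide intervals with 1 shared left end, of 408 and 434 bp, with strengths of 217.7 and 69.7. In the list of nerve and Schwann cell markers 1 of 16 did, Erbb3, a neuregulin receptor (407.3, 477 bp, 2 matches). Of 67 histone genes 1 did, Hist3h2a, with 2 overlapping wide intervals that share the left end, of 403 and 408 bp, with strengths of 334.5 and 91.5. Of 75 genes of cytosolic ribosomal proteins 1 did, Rpl37, with strengths of 479.1 and 35.8 and 3 matches.

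No wide peak lay that near to any of 48 imprinted genes, 23 clock genes, 27 genes of CTCF and cohesin, 18 endothelial or mural markers or 18 immune markers. The same holds for 39 Hox genes, 57 clustered protocadherin genes, 1087 olfactory receptor genes, 49 keratin genes and the 358 zinc finger genes listed. That list does not hold every zinc finger gene. Wide peaks lay 310 bp from the start of Zbtb45 and 1327 bp from that of Zkscan17, zinc finger genes outside it. At 0.668% of protein-coding genes, lists of this size give few or no members with a wide peak, so these counts are values and no test was made.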

How the data were processed

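CTCF ChIP-seq peaks of mouse gastrocnemius were analysed in the lists the authors deposited on mm10. Per the notes deposited with the samples, the technical replicates of each pool were merged into 1 alignment and 1 control alignment served both pools. The aligner is not given in the sources used here, nor is the peak caller. The peak strength is a score deposited by the authors, on an unstated scale. The ranked lists hold the IDR, a measure of how alike 2 inputs rank a peak, which the authors deposited as −log10; entries at 0.05 or less form the thresholded lists. Depth is unknown because the lists hold no read counts. The 95% intervals cover counting error only.

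Locations followed GENCODE M21 with all annotated genes, in the order promoter, exon, intron, intergenic, and sequences came from GRCm38.p6 (RefSeq, with its repeat mask). Location and repeat shares are over entries, so an interval listed with 2 summits counts for each, and motif, CpG and partner shares are over distinct intervals. Shares were compared by their difference with a Newcombe interval and called when it left out 0; sites are not replicates, so no p-value was computed. Of the steps, only the motif scan, the Newcombe interval and the comparison within strength classes were tested on simulated data. Tools were pandas 2.3.3, numpy 2.4.6, scipy 1.17.1, pysam 0.24.0 and samtools 1.23.1. The members, gene lists and tests were chosen with earlier results of these data known. Named peaks are the 10 widest, the 10 strongest, the 5 with the most matches and the strongest per gene list. Other widths, windows, motif limits, overlaps and peak lists were tried as alternatives.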

Additional observations from a re-analysis of the deposited data

Results flagged for a closer look

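The ranked list behind the conservative list held 388 autosomal entries of 400 bp or more, of which 310 met the IDR threshold (79.9%). The share was 31.5% of the 84973 ranked entries of 250 to 350 bp and 41.2% of all ranked entries. The other 78 enter none of the comparisons above, and are given here because they are strong peaks outside the thresholded list. They were among the strongest of all: their median strength was 649.3 (19.6 to 737.3), and 28 of them exceeded 669.0, the highest strength of a wide entry that was kept. Their IDR ran from 0.0501 to 0.610. Of the 78 entries, 57 (73.1%, interval 62.3 to 81.7) held 2 or more core matches. In the conservative list, counted over distinct intervals, the share was 64.6% of wide intervals and 6.51% of all autosomal intervals.

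Narrower entries at the top of the ranked list were left out too. Of the 100 strongest ranked entries 9 met the threshold; 37 of the 100 were wide, of which 2 were kept, and 63 were not, of which 7 were kept. The wide entries of the conservative list are therefore not the strongest wide entries of the ranked list. Whether this comes from the pools or from how the inputs were ranked was not tested.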

How the results depend on the processing

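Across 53 alternatives of the 6 compared shares, 45 kept the direction and the call. The share with 2 or more matches, the promoter share and the CpG-rich share kept both under every alternative run, with differences of 19.7 to 75.9, 14.3 to 18.6 and 18.8 to 25.7 points. The share with a match changed sign when only the 50 bp beside the stronger summit were read (−5.84 points, −11.5 to −0.811). The intergenic difference, not called at first, was −2.27 points at or above the median strength, −1.55 over strength classes, −4.55 in the pool E list (−7.85 to −1.09, which leaves out 0), −1.40 in the pool F list and −1.57 for intervals that overlap no other. The masked difference was no longer called at or above the median strength (−2.33) or in the pool F list (−7.86), which has 26 wide entries. The share stronger than the median of 250 to 350 bp entries was 65.5% from 450 bp, 93.5% in the combined list and 92.3% in the pool F list. It was 92.3% for intervals that overlap no other. That setting leaves out the intervals listed for 2 summits, whose weaker summits reached at most 333.3, below the main median of 359.6. The cause of the other shifts was not tested. The share with several summits was 29.3% from 450 bp and 0 for intervals that overlap no other, which removes them by construction. Partners in the pool F list were 6.84% at a reciprocal overlap of 80% and 97.7% at 1 bp. No paired analysis was possible because every list merges the technical replicates, so none could be left out in turn; the pool E and pool F lists each leave out the other pool.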
